A study of Mus musculus with 4 samples.

Results

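Plasmacytoid dendritic cells (pDC) are the rare DC that sense viral nucleic acids and answer with type I interferon, and 10 genes that mark their identity were followed across the 4 arrays of the study. The genes are Siglech, Bst2, Tcf4, Ccr9, Pacsin1, Cox6a2, Spib, Ly6d, Runx2 and Lair1, and every probe set annotated with 1 of these symbols alone was taken. This gave 15 probe sets for 7 of the 10 genes, out of 45037 probe sets and 17097 genes in all. Siglech, Bst2 and Runx2 are not listed under their symbols in the probe annotation used here, so they have no values and were not analysed here. RNA of splenic DC was measured on 1 array each for MARCO-/- LPS, WT LPS, MARCO-/- PBS and WT PBS. The labels give C56BL/6 as the genetic background of all 4 samples, and the methods give C57BL/6 for the WT mice. MARCO-/- mice lack the scavenger receptor MARCO. The MARCO-/- mice were 8 to 12 weeks old, and the WT mice were bought and matched for age and sex. DC were taken from spleens by positive selection for CD11c in pools of 5 to 6 mice. They were then kept overnight in LPS, the bacterial TLR4 ligand, at 100 ng/ml, or in PBS. The labels describe them as CD11c+CD80+CD86+MHC-II+.

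The pDC fate is set by the E protein TCF4, which works with the ETS factor SPIB and other regulators to turn on pDC genes and is opposed by the inhibitor ID2. Mature pDC carry the chemokine receptor CCR9, inhibitory receptors such as LAIR1, and the machinery of TLR7 and TLR9 in endosomes. Several genes of the set are not particular to pDC: Spib, Tcf4 and Ly6d are also expressed by B cells, Lair1 by many leukocytes, and Cox6a2 by skeletal muscle and heart. Mouse pDC bear little CD11c, the antigen used for the selection.

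The authors deposited RMA intensities, and the brightest probe set of a gene, by its mean on the log2 scale, stood for that gene. The median of all intensities was 4.87, and values near it are background. Itgax, which encodes CD11c, had an intensity of 16.4 in MARCO-/- and 12.9 in WT with LPS, and 621 in MARCO-/- and 548 in WT with PBS. Transcripts of other cells were present too, such as Ms4a1, which encodes CD20 of B cells, with 884 in MARCO-/- and 1113 in WT with LPS and 647.5 and 787 with PBS. Each condition was read once, so nothing is known of the error of a ratio, no test could be run, and genes were called at a fold of 2, the cutoff in the methods. All 7 genes with values had at least 1 array above the median of all intensities, but Pacsin1 and Cox6a2 stayed below 25 on every array, and the 2 surface markers Siglech and Bst2 that define pDC best could not be read. RNA from pDC was therefore not shown to be the source of these signals.

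No gene of the set was 2-fold apart between MARCO-/- and WT with either treatment. Ccr9 came closest, at 1.93-fold lower in MARCO-/- with PBS, and 2 of its dimmer probe sets were 2.11-fold and 2.72-fold lower. For LPS over PBS 3 of the 7 were past 2-fold in both genotypes: Lair1 and Ccr9 were lower and Ly6d was higher. Of all genes 6.32% were higher and 5.98% lower in MARCO-/-, and 6.2% and 8.31% in WT. Ccr9 was not past 2-fold without x_at, s_at and a_at probe sets. The other 4 genes, Tcf4, Spib, Pacsin1 and Cox6a2, stayed within 2-fold of their PBS value in both genotypes.

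The promoters of Lair1 and Ccr9 are shown because these genes were at least 2-fold lower with LPS in both genotypes, and that of Spib because its intensity differed in the other direction. They are RefSeq sequences of build GRCm38.p6, 250 bases before to 50 bases after the start of the gene, written 5′ to 3′ on the strand of the gene. Capitals mark E-boxes (CANNTG), the motif that TCF4 and other E proteins bind. Promoters of 7 of the 10 genes were matched, and Tcf4, Cox6a2 and Ly6d were not among them. The Lair1 window is chr7:4063155-4063454 on the minus strand, the Ccr9 window chr9:123766961-123767260 on the plus strand, and the Spib window chr7:44532022-44532321 on the minus strand.
Lair1: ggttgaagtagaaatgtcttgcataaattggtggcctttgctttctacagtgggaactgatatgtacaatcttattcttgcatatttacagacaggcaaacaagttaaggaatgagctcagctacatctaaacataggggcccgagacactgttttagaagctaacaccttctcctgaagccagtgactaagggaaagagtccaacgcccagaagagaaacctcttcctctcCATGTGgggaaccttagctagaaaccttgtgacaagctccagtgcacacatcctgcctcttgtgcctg
Ccr9: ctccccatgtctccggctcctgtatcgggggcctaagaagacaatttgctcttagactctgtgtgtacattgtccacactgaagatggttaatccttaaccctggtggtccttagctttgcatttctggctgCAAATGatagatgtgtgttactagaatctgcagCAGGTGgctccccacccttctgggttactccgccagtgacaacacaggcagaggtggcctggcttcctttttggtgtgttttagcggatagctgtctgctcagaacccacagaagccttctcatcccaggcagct
Spib: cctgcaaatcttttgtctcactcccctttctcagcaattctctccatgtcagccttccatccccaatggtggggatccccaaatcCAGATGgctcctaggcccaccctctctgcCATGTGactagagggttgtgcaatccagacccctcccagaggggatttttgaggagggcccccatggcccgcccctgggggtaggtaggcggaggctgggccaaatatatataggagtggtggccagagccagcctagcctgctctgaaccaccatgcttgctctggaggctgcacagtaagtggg

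The Lair1 window holds 1 E-box, starting at position -18 from the start of the gene, the Ccr9 window 2, at -118 and -85, and the Spib window 2, at -165 and -136. An E-box is found in 72.3% of 32851 mouse promoter windows of the same length, so its presence does not set these genes apart. The ETS motif GAGGAA, searched on both strands, occurs once in the Lair1 window, at -26, and in neither of the others, and 28.3% of all windows hold it. The RUNX motif TGTGGT occurs in none of these 3 windows and in 16.8% of all. The NF-κB motif, searched by name on both strands, occurs at 2 places in the Spib window and in 8.46% of all windows. None of these matches overlaps another in the 3 windows. A match describes the letters and is not a measured binding site.

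**Figure D1:**
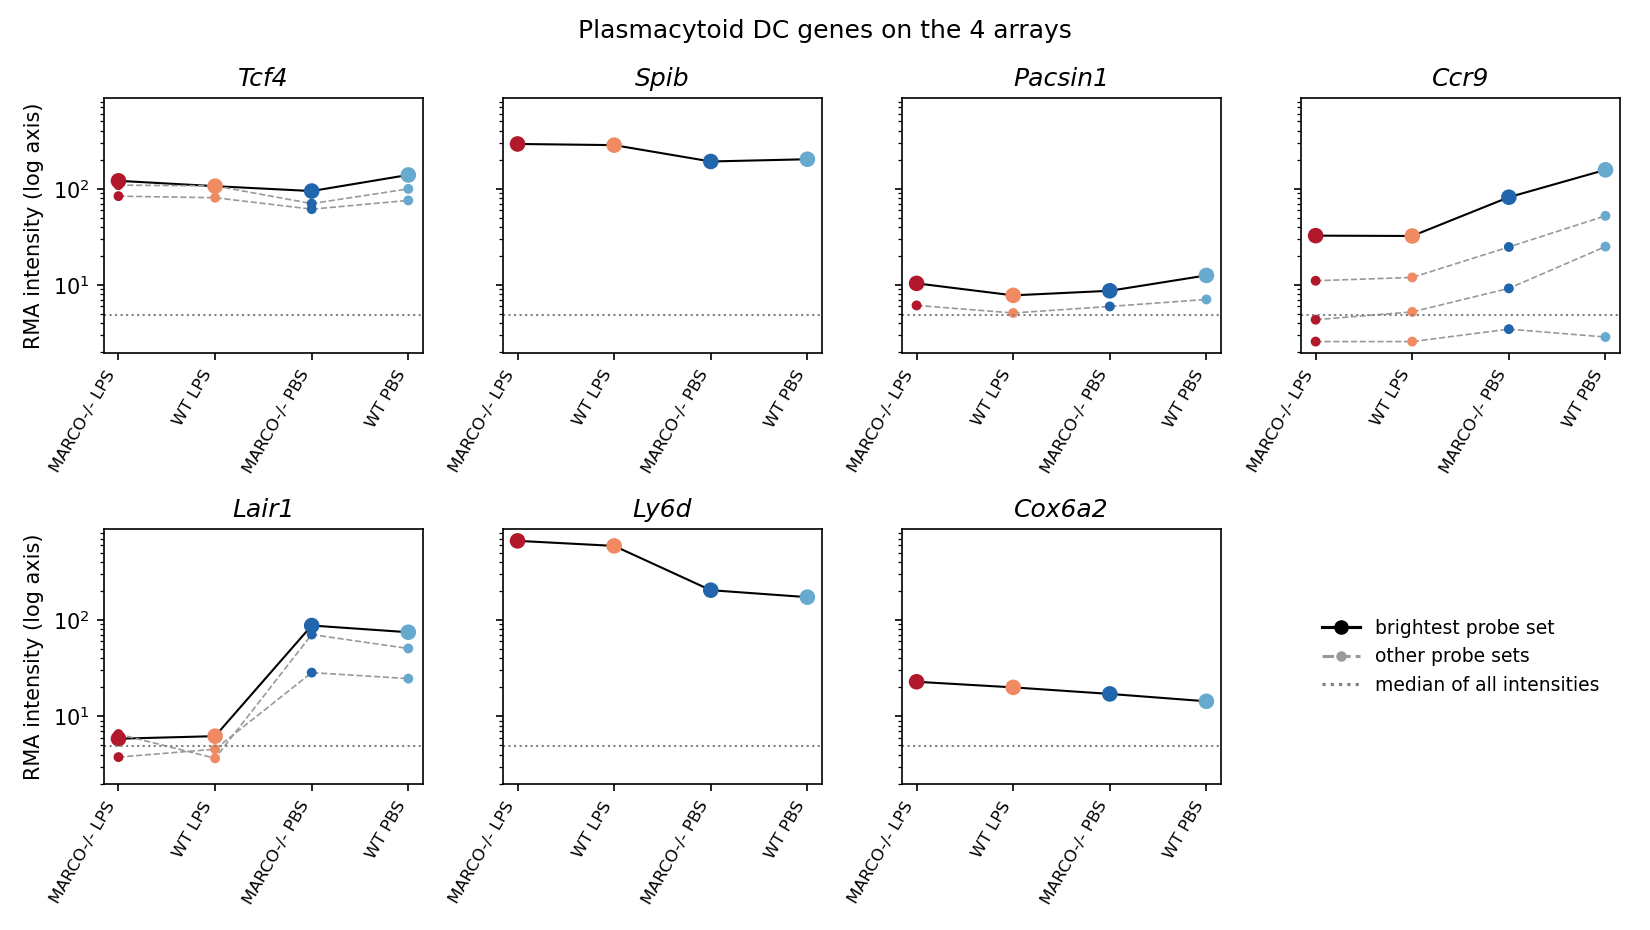
RMA intensity (log axis) of the 15 probe sets of 7 pDC genes on the 4 arrays, with 1 point per array; large points and solid lines are the brightest probe set of a gene, small points and dashed lines the others, and the dotted line is the median of all intensities. Lair1 lies between 5.85 and 6.21 on the LPS arrays and between 74.6 and 87.6 on the PBS arrays, and Ly6d has the opposite order.

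Among the transcription factors, Tcf4 had an intensity of 121 in MARCO-/- and 106 in WT with LPS, and 94.7 in MARCO-/- and 139 in WT with PBS. On this brightest probe set the MARCO-/- PBS array was the lowest and the WT PBS array the highest. On the other 2 probe sets the MARCO-/- PBS array was the lowest too, but both LPS arrays were above the WT PBS array. MARCO-/- was 1.47-fold below WT with PBS, a ratio lower than that of all but 1.71% of the 17097 genes. The other 2 probe sets of Tcf4 were 1.42-fold and 1.23-fold lower, so the 3 had the same direction. With LPS the 3 probe sets were between 1.02-fold and 1.14-fold higher in MARCO-/-. The LPS response of Tcf4 depended on the probe set in WT: the brightest was 1.31-fold lower with LPS, and the others were 1.07-fold higher. In MARCO-/- all 3 were higher with LPS, by between 1.28-fold and 1.56-fold.

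Spib, which encodes an ETS factor of pDC and B cells, had 292 in MARCO-/- and 284 in WT with LPS, and 192 in MARCO-/- and 203 in WT with PBS. Both LPS arrays were above both PBS arrays. The increase was 1.52-fold in MARCO-/- and 1.40-fold in WT, under the threshold in each. Between genotypes the values were within 1.05-fold with PBS and 1.03-fold with LPS.

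Ccr9 encodes the receptor for CCL25, the chemokine that draws pDC and T cells to the small intestine and thymus. Its brightest probe set had 32.6 in MARCO-/- and 32.3 in WT with LPS, and 81.7 in MARCO-/- and 157 in WT with PBS. The LPS arrays were alike, and the PBS arrays were not. LPS over PBS was 2.51-fold lower in MARCO-/- and 4.87-fold lower in WT. With PBS MARCO-/- was 1.93-fold below WT, and only 56 of the 17097 genes had a lower ratio. Another 2 probe sets of Ccr9 were past 2-fold with PBS, with 24.8 in MARCO-/- and 52.3 in WT (2.11-fold lower) and with 9.23 and 25.1 (2.72-fold lower). These 2 are the only probe sets of the set past 2-fold in a comparison of genotypes, that is 2 of 15, where 0.336% of all 28898 probe sets with 1 symbol were lower by at least 2-fold. The probe sets are nested in 1 gene and share the arrays, so they are not separate evidence. The last probe set of Ccr9 lay under the median of all intensities on every array, between 2.59 and 3.48, and showed no such difference. The 3 brighter ones have names ending in x_at or a_at, which mark probe sets that may bind other transcripts or several transcripts of a gene. With such probe sets left out, Ccr9 was read by the dim one alone and was under 2-fold in all 4 comparisons. In bulk RNA, fewer cells of a type and less RNA per cell cannot be told apart. Ccl25 itself lay between 4.66 and 4.76 on the 4 arrays, at the background.

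Pacsin1, which encodes an adaptor of membrane traffic that pDC need for interferon production after TLR7 and TLR9 ligation, had 10.4 in MARCO-/- and 7.81 in WT with LPS, and 8.71 in MARCO-/- and 12.6 in WT with PBS. The WT PBS array was the highest, and all values were low. MARCO-/- over WT was 1.44-fold lower with PBS, with 1.98% of genes at a lower ratio, and 1.33-fold higher with LPS. With an offset of 16 before the log Pacsin1 was 1.16-fold lower with PBS and 1.11-fold higher with LPS. Its dimmer probe set had 5.12 to 7.08 and the same directions, at 1.18-fold lower and 1.20-fold higher. So with PBS Ccr9, Tcf4 and Pacsin1 were each among the genes with the lowest ratios of MARCO-/- over WT, while Spib, Lair1, Ly6d and Cox6a2 were not, with log2 ratios between -0.08 and 0.26. Markers of other cells differed between the same PBS arrays. Summed intensities were lower in MARCO-/- for 13 B cell genes (2165 in MARCO-/- and 2720 in WT), 8 NK cell genes (1264 and 1622), 4 neutrophil genes (282 and 361) and 8 conventional DC 1 genes (1913 and 2206). They were higher for 11 macrophage genes (3569 in MARCO-/- and 2312 in WT), 3 plasma cell genes (1902 and 933) and 2 erythroid genes (6315 and 4391). Those of 6 T cell genes (171 and 176) and 7 conventional DC 2 genes (662 and 672) were close, but their single genes went both ways. In MARCO-/- 4 of the 6 T cell genes were higher and 2 lower. Of the 7 conventional DC 2 genes 3 were higher and 4 lower, with Esam 2.10-fold higher and Mgl2 3.29-fold lower. Of single genes, 10 of 13 B cell and 7 of 8 NK cell genes were lower and 11 of 11 macrophage genes higher in MARCO-/-. The NK cell genes were not uniform. Gzma had 277 in MARCO-/- and 597 in WT (2.16-fold lower), Gzmb was 2.07-fold lower, and Klrb1c, Klrd1 and Nkg7 were within 1.08-fold. Ncr1 went the other way, with 96.0 in MARCO-/- and 33.5 in WT (2.87-fold higher). The part of all these cell types in the ratios of Tcf4, Pacsin1 and Ccr9 was not tested. The median log2 ratio of the 7 genes was -0.08 with PBS and 0.17 with LPS, beside 0.01 and 0.00 for all genes and 0.00 and 0.10 for genes above the median of all intensities. The direction of neither median was stable. That with LPS was -0.05 after quantile normalization and 0.01 after cyclic loess. That with PBS was 0.23 without x_at, s_at and a_at probe sets, where Ccr9 was read by its probe set at the background. Among genes with a log2 intensity of at least 8 it was 0.08, from 2 genes alone, Spib and Ly6d.

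**Figure D2:**
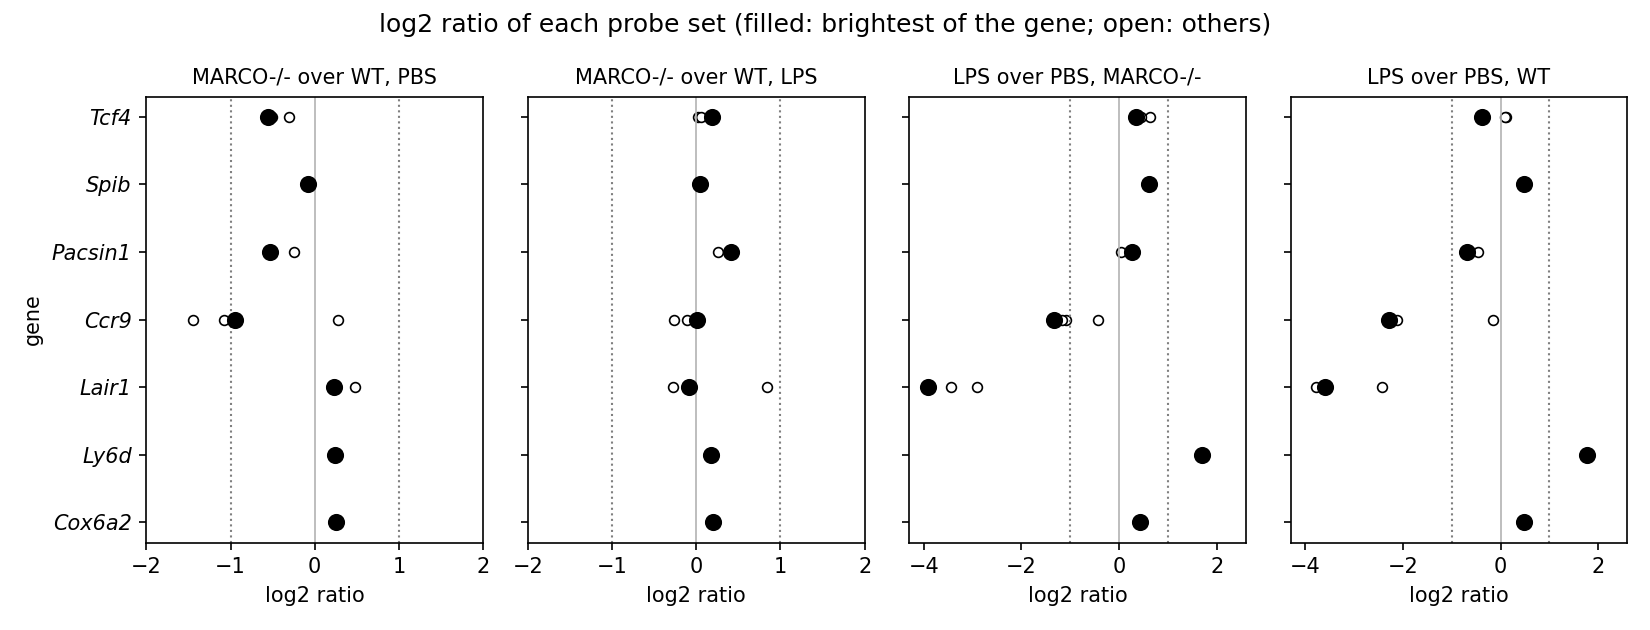
log2 ratio (horizontal axis) of each probe set of 7 pDC genes in 4 comparisons; filled points are the brightest probe set of a gene, open points the others, and dotted lines mark 2-fold. In MARCO-/- over WT with PBS, Ccr9 has -0.94 and 2 open points past the dotted line, at -1.07 and -1.44.

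Lair1 encodes an inhibitory receptor that binds collagens and recruits the phosphatases encoded by Ptpn6 and Ptpn11. It had 5.85 in MARCO-/- and 6.21 in WT with LPS, and 87.6 in MARCO-/- and 74.6 in WT with PBS. Both LPS values were close to the background, which sets the size of the fold. The log2 ratio of LPS over PBS was -3.91 in MARCO-/-, where 58 of 17097 genes had a lower one, and -3.59 in WT, where 78 had. These sizes and ranks rest on LPS values at the background: with an offset of 16 before the log the ratios were -2.25 and -2.03, still past 2-fold. The other probe sets were lower with LPS as well, by 10.8-fold and 7.55-fold in MARCO-/- and by 13.8-fold and 5.41-fold in WT. Between genotypes the brightest probe set was 1.17-fold higher in MARCO-/- with PBS and 1.06-fold lower with LPS. Ptpn6 had 421 in MARCO-/- and 468 in WT with LPS, and 826 and 620 with PBS, and Ptpn11 differed by at most 1.09-fold in any of the 4 comparisons.

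Ly6d encodes a GPI-anchored surface protein of B cells and of lymphoid progenitors that give rise to pDC. It had 664 in MARCO-/- and 589 in WT with LPS, and 204 in MARCO-/- and 173 in WT with PBS. The LPS arrays were both above the PBS arrays, by 3.25-fold in MARCO-/- and 3.41-fold in WT. In WT 346 of the 17097 genes had a higher ratio, and in MARCO-/- 426 had. MARCO-/- was 1.18-fold above WT with PBS and 1.13-fold with LPS. Its single probe set could not be set against another.

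Cox6a2, the subunit of cytochrome c oxidase that muscle, heart and pDC use, had 22.8 in MARCO-/- and 20.0 in WT with LPS, and 17.1 in MARCO-/- and 14.3 in WT with PBS. The ratios were between 1.14-fold and 1.40-fold in the 4 comparisons. Skeletal muscle RNA varied far more between the arrays: the summed intensity of Acta1, Ckm, Myh4, Tnnc2 and Mylpf, chosen after the values had been seen, was 22.9 in MARCO-/- and 420 in WT with LPS, and 160 in MARCO-/- and 23.7 in WT with PBS. The part of muscle RNA in the values of Cox6a2 was not tested. Cox6a1, the form of the subunit used by other tissues, differed by at most 1.03-fold in any comparison.

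In counts of genes, 0 of 7 were higher and 0 of 7 lower in MARCO-/- than in WT with PBS, beside 0.76% higher and 0.287% lower of all 17097 genes. With LPS 0 of 7 were higher and 0 of 7 lower, beside 2.09% and 1.31%. The split of all calls with LPS, 61.4% of them higher, was 71.4% after centring the arrays on their medians, 46.9% after quantile normalization and 50.5% after cyclic loess. At such shares counts of 0 of 7 do not set the genes apart. For LPS over PBS, 1 of 7 was higher and 2 of 7 lower in MARCO-/-, beside 6.32% higher and 5.98% lower of all genes. In WT 1 of 7 was higher and 2 of 7 lower, beside 6.2% and 8.31%. The balance of these calls over all genes turned with the scaling: 1286 were higher and 1166 lower in WT after quantile normalization, and 993 higher and 1115 lower in MARCO-/- after cyclic loess, while the counts of the 7 genes were the same under both. Of the 15 probe sets 1 was higher and 6 were lower in each genotype, all of them of Ly6d, Ccr9 and Lair1, beside 5.78% higher and 5.53% lower of the 28898 probe sets in MARCO-/- and 5.2% and 8.32% in WT. Among the 10955 genes with at least 1 value above the median of all intensities, where all 7 belong, the shares were 9.86% higher and 9.33% lower in MARCO-/-, and 9.62% and 12.9% in WT. The median log2 ratio of LPS over PBS of the 7 genes was 0.35 in MARCO-/- and -0.39 in WT, and it was that of Tcf4 in both.

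The size of the LPS response was compared between genotypes by the log2 ratio in MARCO-/- minus that in WT, which has no test here. It was 0.96 for Ccr9, 0.94 for Pacsin1 and 0.74 for Tcf4. Of all genes, 3.76%, 3.88% and 7.32% had a difference at least as high. These genes had the lowest ratios of MARCO-/- over WT with PBS among the 7, and both quantities contain the same PBS arrays. The differences were 0.12 for Spib, -0.06 for Cox6a2, -0.07 for Ly6d and -0.32 for Lair1.

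**Figure D3:**
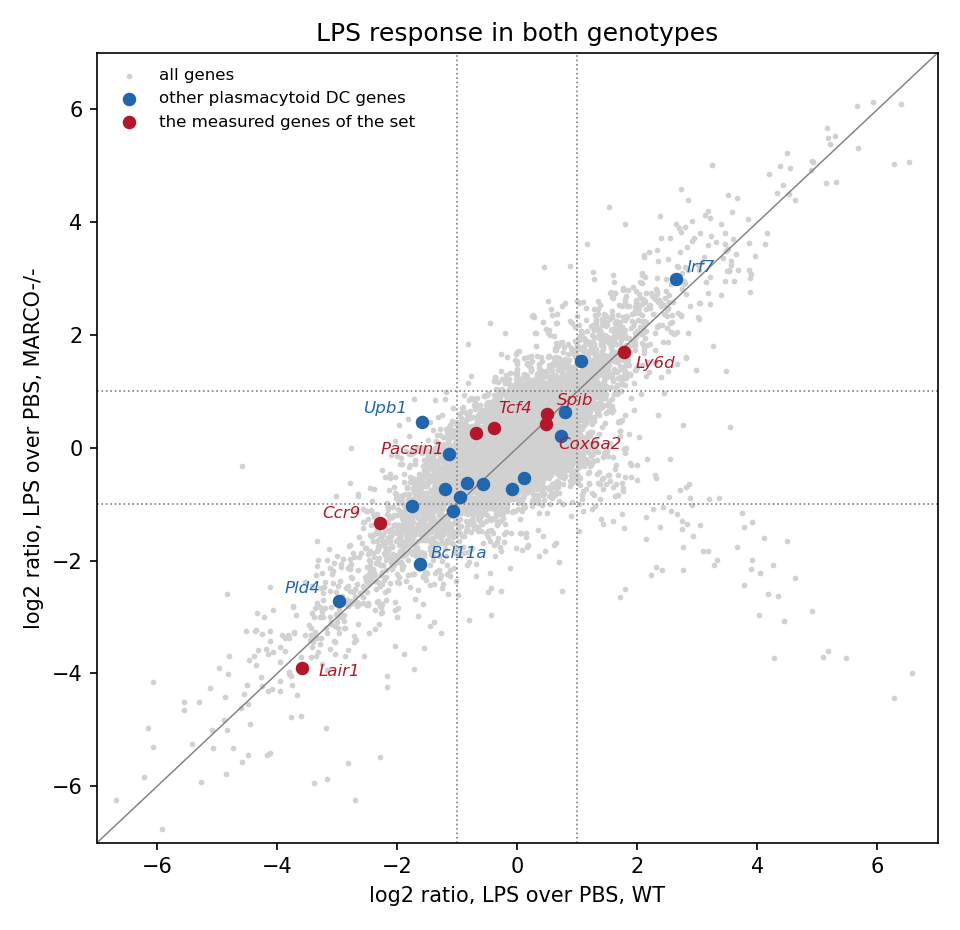
log2 ratio of LPS over PBS in MARCO-/- (vertical axis) and WT (horizontal axis), with 1 point per gene; red points are the 7 pDC genes with values, blue points other pDC genes, grey points all genes, the diagonal marks equal ratios and dotted lines 2-fold. Lair1 lies at -3.91 in MARCO-/- and -3.59 in WT, and Ccr9, Pacsin1 and Tcf4 lie above the diagonal.

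Another 21 genes of pDC development and function were listed, of which 16 had values. With PBS 0 of 16 were past 2-fold between MARCO-/- and WT. With LPS only 1 of 16 was, Upb1, a pyrimidine-degrading enzyme (2.97-fold higher, with 15.4 in MARCO-/- and 5.18 in WT). Between genotypes 0.76% of all genes were higher and 0.287% lower with PBS, and 2.09% and 1.31% with LPS. At such shares counts of 0 and 1 of 16 do not set these genes apart. LPS over PBS was at least 2-fold higher for 2 of 16 in MARCO-/- and 2 of 16 in WT, the same genes: Irf7, the factor that drives interferon alpha genes (7.99-fold in MARCO-/- and 6.25-fold in WT), and Havcr1 (2.90-fold and 2.08-fold). It was at least 2-fold lower for 4 of 16 in MARCO-/- and 7 of 16 in WT. All 16 had a value above the median of all intensities, and among such genes 9.86% were higher and 9.33% lower in MARCO-/-, and 9.62% and 12.9% in WT. Pld4, an exonuclease that degrades ligands of TLR9, had 84.1 in MARCO-/- and 51.2 in WT with LPS, and 552 and 403 with PBS, which is 6.57-fold and 7.87-fold lower. Bcl11a, a factor upstream of Tcf4 in pDC development, had 74.6 in MARCO-/- and 120 in WT with LPS, and 312 and 367 with PBS (4.18-fold and 3.06-fold lower). Cbfa2t3, a corepressor that acts with TCF4, was 2.19-fold and 2.10-fold lower, and Smim5 2.06-fold and 3.38-fold lower. With LPS Smim5 had 4.59 in MARCO-/- and 3.55 in WT, at the background. In WT alone Upb1, Lag3 and Ptprs were past 2-fold too, at 3.01-fold, 2.29-fold and 2.21-fold lower, against 1.38-fold higher, 1.67-fold lower and 1.08-fold lower in MARCO-/-. In WT with LPS Upb1 had 5.18, close to the background, and Lag3 had 7.95. Irf8, needed by pDC and conventional DC 1, was 1.56-fold lower in MARCO-/- and 1.48-fold lower in WT. The median log2 ratio of the 16 was -0.63 in MARCO-/- and -0.90 in WT.

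Of 7 E protein, Id and related factors, Id3, an inhibitor of E proteins, was 3.20-fold higher with LPS in MARCO-/- and 3.35-fold in WT. Id2, the inhibitor that opposes TCF4 in DC, had 2331 in MARCO-/- and 1395 in WT with LPS, and 1320 in MARCO-/- and 938 in WT with PBS. It was highest on the MARCO-/- LPS array and under 2-fold in every comparison. Tcf3 and Tcf12, the other E protein genes, differed by at most 1.33-fold. Nfil3, a factor that conventional DC 1 require, had 109 in MARCO-/- and 242 in WT with PBS (2.23-fold lower) and 381 and 299.7 with LPS, and LPS over PBS was 3.50-fold higher in MARCO-/- and 1.24-fold in WT. Id4 (2.62 in MARCO-/- and 7.65 in WT with LPS) was past 2-fold near the background.

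Of 22 paralogues and partners of the 10 genes, 20 had values and none was past 2-fold between genotypes. Of all genes 0.76% were higher and 0.287% lower with PBS, and 2.09% and 1.31% with LPS, so this does not set them apart. For LPS over PBS 1 of 20 was higher and 3 of 20 lower in MARCO-/-, beside 6.32% and 5.98% of all genes. In WT 1 of 20 was higher and 5 of 20 lower, beside 6.2% and 8.31%. Tyrobp, which encodes the DAP12 adaptor of Siglec-H, had 448 in MARCO-/- and 401 in WT with LPS, and 1666 and 1270 with PBS (3.72-fold and 3.16-fold lower). Cbfb, the partner of RUNX factors, was 2.35-fold lower with LPS in both genotypes. Runx1 was 1.15-fold lower in MARCO-/- and 2.16-fold lower in WT, Cd33 1.83-fold and 3.14-fold lower, Siglecg 1.31-fold and 2.12-fold lower, and Cd22 of B cells 2.62-fold and 1.64-fold lower. Spi1, which encodes PU.1, the relative of SPIB, was 1.63-fold and 1.99-fold lower, where Spib was higher. Ly6k, of the family of Ly6d, was 5.71-fold higher in MARCO-/- and 3.64-fold in WT, from PBS values at the background.

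Endosomal sensing of nucleic acids is what pDC are known for, and of 10 such genes with values 0 were past 2-fold between genotypes and 1 was for LPS over PBS in each genotype. All 10 had a value above the median of all intensities. Among such genes 9.86% were higher and 9.33% lower with LPS in MARCO-/-, and 9.62% and 12.9% in WT. Between genotypes 0.76% of all genes were higher and 0.287% lower with PBS, and 2.09% and 1.31% with LPS. At such shares counts of 0 and 1 of 10 do not set these genes apart. Tlr7 had 53.4 in MARCO-/- and 49.6 in WT with LPS, and 57.6 in MARCO-/- and 39.2 in WT with PBS, and Tlr9 had 10.4 and 11.7 with LPS and 8.11 and 7.55 with PBS. The 2 genes past the threshold were Unc93b1 in MARCO-/- and Cnpy3 in WT. Unc93b1, the chaperone of these receptors, was 2.24-fold lower with LPS in MARCO-/- and 1.76-fold in WT, and Cnpy3 was 1.68-fold higher in MARCO-/- and 2.05-fold in WT. Slc15a4, a lysosomal transporter that pDC need for interferon production, had 128 in MARCO-/- and 82.1 in WT with PBS (1.56-fold higher), and was 1.53-fold higher with LPS. The interferon alpha and beta genes had intensities between 2.08 and 4.97 on all arrays, at the background. Interferon-stimulated genes were nonetheless high with LPS. In MARCO-/- 20 of 20 were at least 2-fold higher and in WT 19 of 20, beside 9.86% and 9.62% of genes above the median. The median log2 ratios of the interferon-stimulated genes were 2.67 and 2.37. Between genotypes 19 of these 20 were higher in MARCO-/- with PBS and 19 of 20 with LPS, 3 of 20 by at least 2-fold in each. The median log2 ratios of MARCO-/- over WT were 0.46 with PBS and 0.44 with LPS, beside 0.01 and 0.00 for all genes. These differences were not tested. Bst2 belongs to such genes in many cells, and no value of it is available for comparison.

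**Figure D4:**
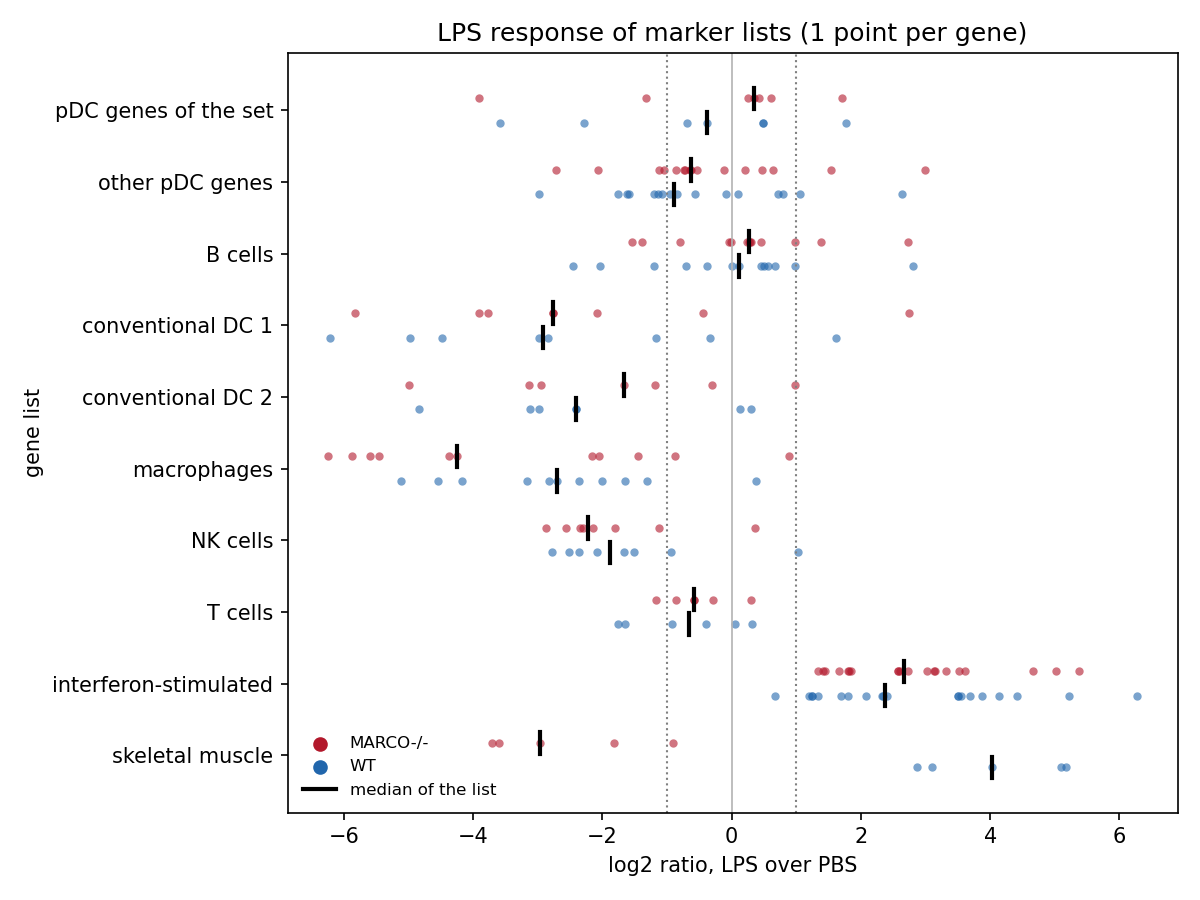
log2 ratio of LPS over PBS (horizontal axis) of gene lists (vertical axis), with 1 point per gene, MARCO-/- in red above WT in blue; black bars are list medians and dotted lines mark 2-fold. The conventional DC 1 list has medians of -2.76 in MARCO-/- and -2.91 in WT, and the pDC genes of the set 0.35 and -0.39.

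Markers of other cells differed between LPS and PBS as well. All measured genes of the cell lists below had a value above the median of all intensities. Among such genes 9.86% were at least 2-fold higher and 9.33% lower with LPS in MARCO-/-, and 9.62% and 12.9% in WT. Of 8 conventional DC 1 genes, 6 were at least 2-fold lower with LPS in each genotype. In both, 1 of the 8, Ly75, was higher (6.68-fold in MARCO-/- and 3.08-fold in WT). The summed intensity of the 8 was 726 in MARCO-/- and 642 in WT with LPS, and 1913 and 2206 with PBS. Of 4 genes of all conventional DC, 2 were lower and 1, Zbtb46, was higher (2.61-fold) in MARCO-/-. In WT 1 of the 4 was lower and 0 were higher. Of 7 conventional DC 2 genes 5 were lower in each, and of 11 macrophage genes 9 were lower in MARCO-/- and 10 in WT. Of 8 NK cell genes 7 were lower in MARCO-/- and 6 in WT, where 1, Gzmb, was higher (2.03-fold). All 4 of 4 neutrophil genes were lower in each genotype. The B cell list did not follow this: of 13 genes 2 were higher and 2 lower in MARCO-/-, and 1 was higher and 3 were lower in WT, with a summed intensity of 2572 in MARCO-/- and 3144 in WT with LPS, and 2165 and 2720 with PBS. Unlike those of B cells, the sums of T cell and plasma cell genes were lower with LPS than with PBS in both genotypes. Of 6 T cell genes 1 was lower in MARCO-/- and 2 in WT. Their summed intensity was 144 in MARCO-/- and 128 in WT with LPS, and 171 and 176 with PBS. Of 3 plasma cell genes 1 was higher and 1 lower in each genotype, with sums of 981 in MARCO-/- and 677 in WT with LPS, and 1902 and 933 with PBS. Of 2 erythroid genes 0 were lower in MARCO-/- and 1 in WT. No measured marker of these lists was at 0, since RMA intensities have a floor. Ly6d and Spib, which B cells share, were higher with LPS than with PBS in both genotypes, and the part of B cells in their values was not tested. The part of B cells, T cells or macrophages in the values of Ccr9 and Lair1 was not tested either.

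Genes most like Ccr9, Lair1 and Ly6d over the 4 arrays were looked for after the values had been seen, since the planned search used Siglech. The measure was the largest difference of centred log2 values on any array, over 1592 genes with a log2 intensity of at least 8 on some array. Those nearest to Lair1 were Gm6377, Gm2a, Slamf8 and Rhob, with largest differences between 0.12 and 0.15, and then Il18 with 0.30. Those nearest to Ly6d were Parp9, Resf1, Ifi209, Zc3h12d and Psme2, with differences between 0.02 and 0.12. Those nearest to Ccr9 were less alike, at 0.34 to 0.41, and were Btla, Bcl11a, BC028528, Mpeg1 and Gmfg. With 4 arrays many genes can share a pattern, and the likeness says nothing of shared function.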

How the data were processed

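RNA of splenic DC was hybridized to 4 arrays, 1 per condition. The authors normalized the scanned arrays, Mouse Genome 430 2.0 per the methods, with RMAexpress (version not stated) and deposited 1 intensity per probe set on a linear scale. It was converted to log2 without an offset. Names of probe sets contain PM. The methods describe 3 pools of DC per genotype, and the pool used for the arrays is not stated. The file holds 45141 probe sets, and its 104 controls were dropped. Of the rest 28898 have exactly 1 gene symbol in the annotation, 551 have several and 15588 are not listed. The brightest probe set stood for a gene. No test was possible with 1 array per condition, and the number of arrays limits the precision. A fold of at least 2 was called, as in the methods.

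The 10 genes and the other lists were chosen with earlier results of these data known. The plan was to name all 7 genes of the set with values and the listed paralogues, partners and regulators. Genes of the other lists past 2-fold with a brighter value above the median of all intensities were to be named too (up to 6 per list and comparison). For the lists of other cells and of interferon-stimulated genes, counts, sums or medians are given instead. Most of their genes past 2-fold are not named. Irf8, Slc15a4, Tlr7, Tlr9, Itgax, Ms4a1, Klrb1c, Klrd1 and Nkg7, the list of muscle genes and the search for genes like Ccr9, Lair1 and Ly6d were added after the values were seen. Other settings were the mean of all probe sets, median centring, quantile normalization, cyclic loess, 2 filters on low values, thresholds of 1.5-fold and 3-fold, probe sets without x_at, s_at and a_at names, and an offset of 16. A value was treated as unchanged within a factor of 1.5. The steps were tested on simulated data. Python 3.11.15, numpy 2.4.6, pandas 2.3.3, matplotlib 3.10.9, R 4.3.3 and limma 3.58.1 were used.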

Additional observations from a re-analysis of the deposited data

Results flagged for a closer look

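For 3 genes the 2 genotypes had opposite directions of LPS over PBS, each by at least 0.25 on the log2 scale. The genotypes have 1 array per condition, so the difference was not tested. The log2 ratio of Tcf4 was 0.35 in MARCO-/- and -0.39 in WT, and the other 2 probe sets of Tcf4 were above 0 in both genotypes. That of Pacsin1 was 0.26 in MARCO-/- and -0.69 in WT, at intensities of at most 12.6. That of Upb1 was 0.46 in MARCO-/- and -1.59 in WT, where its intensity with LPS was 5.18, close to the background.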

How the results depend on the processing

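No replicate could be left out with 1 array per condition, and no error of a ratio is known. No paired analysis was possible because each condition has 1 array and no test was run. Median centring, quantile normalization, cyclic loess, the mean of all probe sets and an offset of 16 left the counts of genes past 2-fold as they were in the 4 comparisons, 0 of 7 between genotypes and 3 of 7 for LPS over PBS in each genotype. At a threshold of 1.5-fold 1 gene was lower in MARCO-/- with PBS, and for LPS over PBS 2 were higher and 2 lower in MARCO-/- and 1 was higher and 3 were lower in WT. At 3-fold the counts for LPS over PBS were 2 of 7 in MARCO-/-, without Ccr9, and 3 of 7 in WT. Counted by probe sets, a choice made after the data were seen, 2 of 15 were past 2-fold between genotypes with PBS and 7 of 15 for LPS over PBS in each genotype. Among genes with a log2 intensity of at least 8 only Spib and Ly6d were left, so the count for LPS over PBS was 1 of 2 in each genotype and the median log2 ratio 1.15 in MARCO-/- and 1.13 in WT. Without x_at, s_at and a_at probe sets Ccr9 was read by the probe set at the background, and its log2 ratio was 0.27 for MARCO-/- over WT with PBS, -0.43 for LPS over PBS in MARCO-/- and -0.16 in WT, so that Lair1 and Ly6d alone were past 2-fold with LPS. The other ratio that moved by over 1.5 times was LPS over PBS of Lair1 with the offset of 16, at -2.25 in MARCO-/- and -2.03 in WT. With that offset 35 of all genes were higher and 14 lower in MARCO-/- with PBS, against 130 and 49 without it, and 38 and 62 with LPS, against 357 and 224 without it and 232 and 263 after quantile normalization. For LPS over PBS the offset gave 621 higher and 553 lower in MARCO-/-, against 1081 and 1023, and 553 and 729 in WT, against 1060 and 1420.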
